A study of Neurospora crassa with 12 samples.

Results

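The structural cell wall protein genes of the filamentous fungus Neurospora crassa described here are 9 genes taken by locus tag, of the 9730 genes counted in each library: the non-anchored cell wall protein genes ncw-1 (NCU05137), ncw-3 (NCU07817) and ncw-6 (NCU00586), the anchored cell wall protein genes acw-1 (NCU08936, also named ccg-15), acw-2 (NCU00957), acw-3 (NCU05667), acw-5 (NCU07776) and acw-6 (NCU03530), and the clock-controlled gene ccg-14 (NCU07787). All 9 passed the filter on low counts and were tested in each of the 5 comparisons below. RNA of 12 libraries was sequenced, 3 biological replicates (I, II and III) in each of 4 groups: Δpac-3 in high-Pi, Δmus-52 in high-Pi, Δpac-3 in low-Pi and Δmus-52 in low-Pi. PAC-3 is the zinc finger transcription factor of the ambient pH response, and the study asked how its loss changed the transcriptome when phosphate (Pi) was sufficient or scarce.

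In the Δpac-3 strain the pac-3 coding region had been replaced by a herbicide resistance gene in a mus-52 deletion background. The Δmus-52 strain, which lacks a factor of non-homologous end joining, served as the control. Conidia, the asexual spores, came from cultures of 10 days for Δpac-3 and 5 days for Δmus-52. The added days of Δpac-3 were spent at room temperature in ambient light. Culture age and time in light therefore differed with the strain. Wherever the strains are compared, their effects and that of the deletion cannot be told apart. The spores of both strains were germinated with shaking for 5 h at 30 °C in media at pH 5.4 holding 44 mM sucrose and 50 mM citrate, with Pi at 10 mM in high-Pi or 10 µM in low-Pi, and the young mycelium was harvested. Nothing in the labels says how the replicate cultures were separated, so the p-values measure the spread between these libraries.

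The fungal cell wall is a network of chitin and β-glucans with glycoproteins attached to it. Anchored wall proteins carry a glycosylphosphatidylinositol (GPI) anchor that first holds them to the plasma membrane, whereas non-anchored wall proteins are secreted without it. In N. crassa, wall proteins are bound into the glucan and chitin network through their N-linked galactomannan, which OCH-1 begins to extend and which enzymes of the DFG5 and DCW1 family cross-link. The product of ccg-14 belongs to the cerato-platanins, small secreted proteins of filamentous fungi found in the wall and the medium.

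The reads had been mapped to assembly NC12 of strain OR74A, and the RefSeq annotation of that assembly places the 9 protein-coding genes on chromosomes I, II, III, V and VI. The non-anchored genes span 3599193 to 3603076 on VI (ncw-1), 972480 to 974377 on III (ncw-3) and 7917286 to 7919672 on I (ncw-6). The anchored genes span 5755664 to 5759137 on V (acw-1), 6581266 to 6584222 on I (acw-2), 417349 to 420268 on III (acw-3), 339569 to 341060 on V (acw-5) and 350280 to 352134 on II (acw-6), and ccg-14 spans 301242 to 304089 on V. Of the 9 genes, ncw-1 alone overlaps another annotated gene.

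The deleted genes were read first, in CPM, the counts scaled to a common library size with edgeR's TMM factors. The pac-3 gene (NCU00090) had 130, 182 and 153 CPM in the high-Pi libraries I, II and III labelled Δpac-3, against 399, 355 and 452 CPM in those labelled Δmus-52. The low-Pi values were 154, 133 and 157 CPM in libraries labelled Δpac-3, against 511, 512 and 518 CPM in those labelled Δmus-52. Counts of pac-3 thus remained in the Δpac-3 libraries but were lower in each of them than in any library labelled Δmus-52. The mus-52 gene (NCU00077) had from 0 to 36 counts in the 6 libraries labelled Δpac-3 and from 487 to 1344 counts in the 6 labelled Δmus-52. These counts contradict the label of the control libraries, so that the groups are named here by the labels of their libraries, and an effect of the difference in mus-52 cannot be told apart from that of pac-3.

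Total counts ranged from 20240314 to 82211503 per library. In every library they were above the number of mapped reads that the study lists, so a count need not stand for a separate read pair. A gene was called changed at a Benjamini-Hochberg adjusted p below 0.05 in edgeR's quasi-likelihood test over all genes tested, and modulated if its absolute log2 fold change was also at least 1.5, the thresholds of the study. Strain comparisons are given as Δpac-3 over Δmus-52 and Pi comparisons as high-Pi over low-Pi. Of the changed genes, 53.2% were higher in Δpac-3 in high-Pi and 49.5% in low-Pi. Under scaling by total counts alone these shares were 78.9% and 68.7%, and the median log2 fold change of all genes moved to 0.25 in high-Pi and 0.19 in low-Pi, against -0.01 and 0.02 with TMM, so the changes below are relative to the TMM scale. As a sign of spore RNA, the 4 conidial marker genes con-6, con-8, con-10 and eas were read, and none of them was at 0 in any group. Their summed level was 36.4 to 184 CPM in high-Pi libraries labelled Δpac-3, against 25.3 to 29.2 CPM in those labelled Δmus-52, and 101 to 463 CPM in low-Pi libraries labelled Δpac-3, against 12.6 to 40.2 CPM in those labelled Δmus-52. Without eas, the other 3 markers summed to 10.4 to 50.4 CPM in high-Pi libraries labelled Δpac-3, against 18.7 to 23.1 CPM in those labelled Δmus-52, and to 19.7 to 64.3 CPM in low-Pi libraries labelled Δpac-3, against 8.97 to 33.7 CPM in those labelled Δmus-52, and the groups overlapped in both media. The gene eas was changed upwards in both media with each library left out. The con-8 gene was changed upwards in both, but its high-Pi call was lost without Δmus-52 I or II (adjusted p of up to 0.0813). The low-Pi call of con-10 (edgeR adjusted p = 0.0404) was lost with DESeq2 (0.0819) and in 4 of 6 fits with a library left out, those without II or III of either strain (up to 0.143). In high-Pi con-10 was not changed (log2 fold change 1.58, adjusted p = 0.0813), but passed without Δpac-3 I (0.0046). With DESeq2 and with total counts, 3 of the 4 markers were called upwards in high-Pi. The con-6 gene was not changed, its log2 fold change being -0.75 in high-Pi, while the low-Pi one was 1.13. It was called lower in high-Pi without Δpac-3 III (0.0022) and higher in low-Pi without Δmus-52 I or Δpac-3 I (down to 0.0005). The part of conidial RNA in the strain differences below was not tested.

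**Figure D1:**
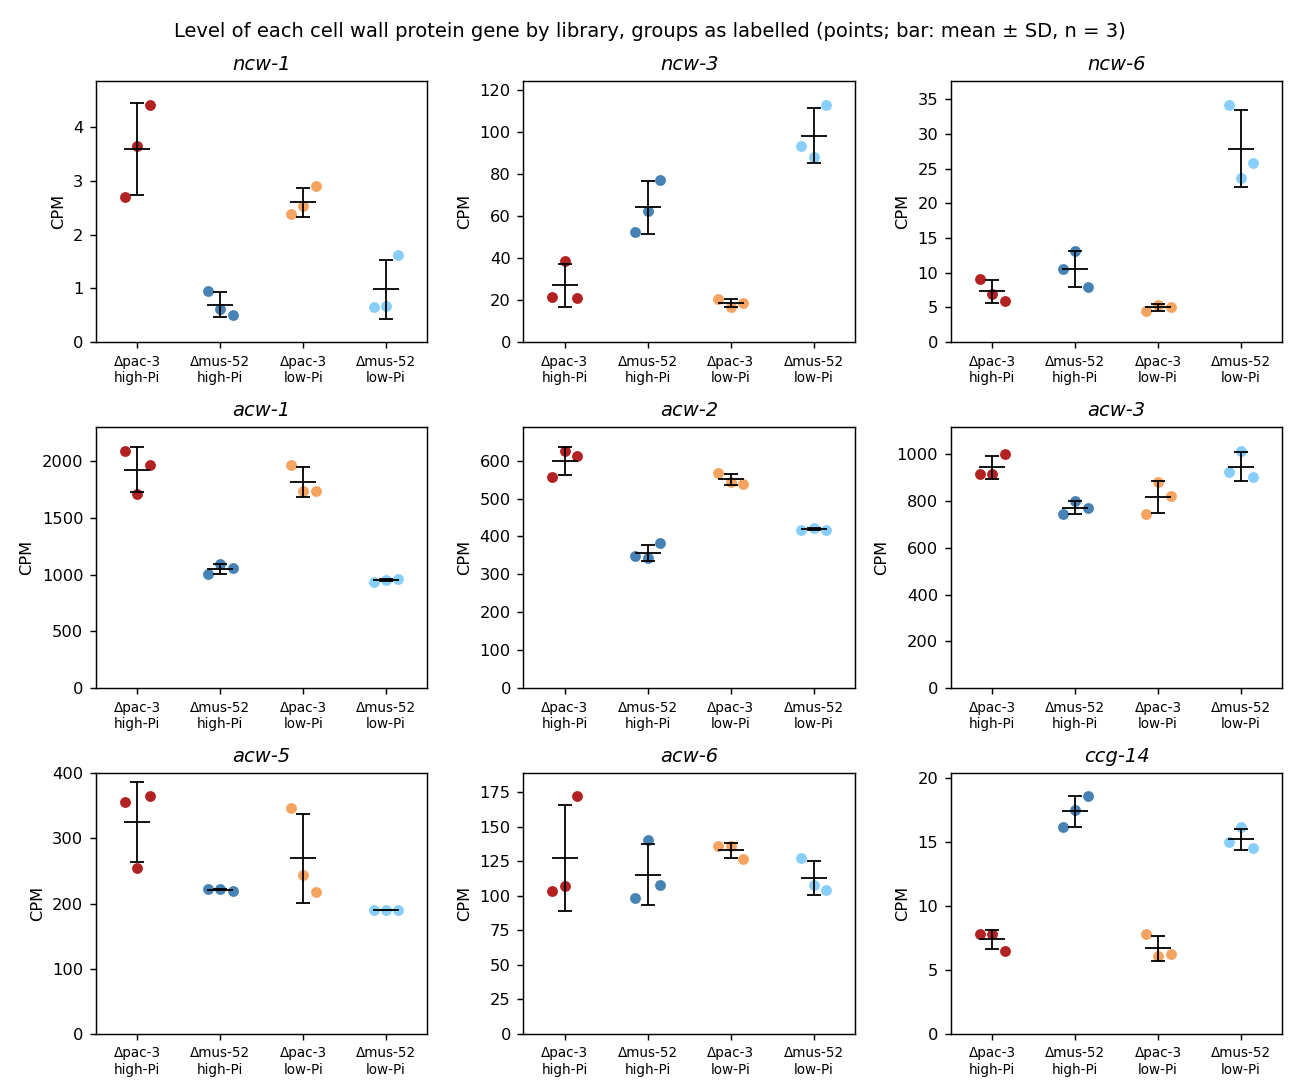
Level in CPM (vertical axes, each from 0 and scaled to its gene) of the 9 cell wall protein genes in the 12 libraries, by group as labelled. Points are libraries and bars the mean ± SD of n = 3. The gene ncw-6 stands at 23.7 to 34.2 CPM in low-Pi libraries labelled Δmus-52 and at no more than 13.1 CPM in the other groups.

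Between the strains, the cell wall protein genes changed in both directions. Replicates spread more in the high-Pi comparison (biological coefficient of variation 0.208) than in the low-Pi one (0.121), so calls in high-Pi and low-Pi are not on equal terms. In high-Pi, 4 of the 9 genes (ncw-1, acw-1, acw-2 and acw-5) were changed upwards in Δpac-3, against 18.8% of all 8284 genes tested, and 2 (ncw-3 and ccg-14) downwards, against 16.6%. In low-Pi the same 4 genes were changed upwards, against 25.3% of 8269 genes, and 3 (ncw-3, ncw-6 and ccg-14) downwards, against 25.9%. In high-Pi 1 gene, ncw-1, was modulated, where 9.14% of all genes were, and in low-Pi 2 genes, ncw-3 and ncw-6, were modulated, where 9.6% were. The 9 genes had a median log2 fold change of 0.31 in high-Pi, beside -0.01 over all genes tested, and 0.24 in low-Pi, beside 0.02. Their summed level was 3967 ± 260 CPM in high-Pi libraries labelled Δpac-3, against 2608 ± 98.4 CPM in those labelled Δmus-52, and 3616 ± 165 CPM in low-Pi libraries labelled Δpac-3, against 2762 ± 51.5 CPM in those labelled Δmus-52 (SD, n = 3 each). These sums were not tested. In low-Pi libraries labelled Δmus-52, acw-3 (mean 948 CPM) and acw-1 (mean 950 CPM) made up about equal parts. In the other groups the largest part was that of acw-1. Without it the other 8 genes summed to 2043 ± 127 CPM in high-Pi libraries labelled Δpac-3, against 1559 ± 55.7 CPM in those labelled Δmus-52, and to 1802 ± 53.8 CPM in low-Pi libraries labelled Δpac-3, against 1812 ± 48.8 CPM in those labelled Δmus-52, where the ranges overlapped.

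The 3 non-anchored genes did not move together. The gene ncw-1 was counted at 2.71, 3.65 and 4.42 CPM (83, 122 and 154 counts) in the high-Pi libraries I, II and III labelled Δpac-3, against 0.96, 0.62 and 0.51 CPM (56, 16 and 20 counts) in those labelled Δmus-52. It had in low-Pi 2.38, 2.54 and 2.90 CPM (196, 57 and 85 counts) in Δpac-3, against 0.65, 0.67 and 1.62 CPM (28, 19 and 32 counts) in Δmus-52. All Δpac-3 libraries lay above all Δmus-52 libraries in both media. The log2 fold change was 2.35 (SE 0.33, edgeR adjusted p = 0.0022) in high-Pi and 1.496 (SE 0.34, adjusted p = 0.0046) in low-Pi, where the value lies just under the threshold for modulated and ran from 1.22 to 1.98 with a library left out. In the annotation, the span of ncw-1 overlaps that of NCU05138, and the use of strand in counting is not given in the sources used here, so reads of one gene could be counted for the other. NCU05138 was itself rare, with 0.16 to 0.63 CPM in high-Pi libraries labelled Δpac-3, against at most 0.08 CPM in those labelled Δmus-52, and 0.33 to 0.44 CPM in low-Pi libraries labelled Δpac-3, against 0.05 to 0.25 CPM in those labelled Δmus-52, levels too low for the strain tests.

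The gene ncw-3 was lower in Δpac-3. In high-Pi it had 21.2, 38.7 and 21.0 CPM in Δpac-3, against 52.5, 62.5 and 77.2 CPM in Δmus-52. Low-Pi levels were 20.6, 16.6 and 18.8 CPM in Δpac-3, against 93.1, 88.3 and 113 CPM in Δmus-52. The strains did not overlap in either medium, and library II was the highest of the high-Pi Δpac-3 libraries by a wide gap. The log2 fold change was -1.23 (SE 0.27, edgeR adjusted p = 0.0118) in high-Pi and -2.38 (SE 0.12, adjusted p = 3.2e-07) in low-Pi. Without Δpac-3 library II the high-Pi value was -1.57, which passes the threshold for modulated, and 2 of the 9 genes were then modulated.

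The gene ncw-6 had 9.07, 6.87 and 5.94 CPM in high-Pi libraries labelled Δpac-3, against 10.6, 13.1 and 7.93 CPM in those labelled Δmus-52. These ranges overlapped, and the log2 fold change of -0.51 (SE 0.24) did not pass the test (edgeR adjusted p = 0.138). In low-Pi it had 4.47, 5.38 and 5.11 CPM in Δpac-3, against 34.2, 23.7 and 25.8 CPM in Δmus-52. Here each Δpac-3 library lay far below each Δmus-52 library, and the log2 fold change of -2.49 (SE 0.16, edgeR adjusted p = 1.2e-06) was the largest in size of the 9 genes in low-Pi. The study named ncw-3 and ncw-6 from the low-Pi libraries used here, so their fall there is not independent evidence of its direction.

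**Figure D2:**
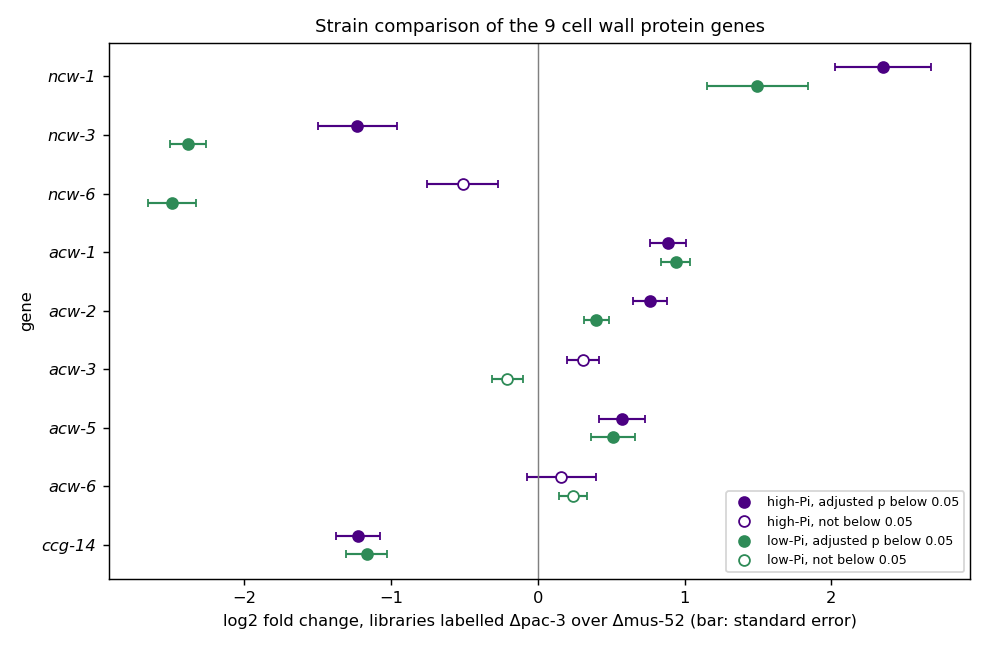
Log2 fold change of the 9 cell wall protein genes in libraries labelled Δpac-3 over those labelled Δmus-52 (horizontal axis), in high-Pi and low-Pi. Bars are standard errors of the edgeR fit, and filled points have an adjusted p below 0.05. The values for acw-1 (0.89 and 0.94) and ccg-14 (-1.22 and -1.17) lie close together in the 2 media, while those for ncw-6 (-0.51 and -2.49) lie apart.

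Of the 5 anchored genes, acw-1, acw-2 and acw-5 rose in Δpac-3 in both media and acw-3 and acw-6 passed in neither. The gene acw-1 had 2093, 1708 and 1970.3 CPM in high-Pi libraries labelled Δpac-3, against 1004, 1091 and 1055 CPM in those labelled Δmus-52. Its low-Pi levels were 1968, 1739.7 and 1735 CPM in Δpac-3, against 937, 956 and 957 CPM in Δmus-52. The strains were far apart relative to their spread, with log2 fold changes of 0.89 (SE 0.12, edgeR adjusted p = 0.0021) in high-Pi and 0.94 (SE 0.10, adjusted p = 3.2e-05) in low-Pi. A log2 value of this size is a 1.85-fold and a 1.92-fold higher level, short of the threshold for modulated.

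The gene acw-2 had 558, 627 and 612 CPM in high-Pi libraries labelled Δpac-3, against 348, 342 and 381 CPM in those labelled Δmus-52. The low-Pi levels of acw-2 were 567, 545 and 539 CPM in Δpac-3, against 418, 422 and 418 CPM in Δmus-52. No library of one strain overlapped the other, and the log2 fold change was 0.76 (SE 0.12, edgeR adjusted p = 0.0031) in high-Pi and 0.40 (SE 0.08, adjusted p = 0.0030) in low-Pi.

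The gene acw-5 was higher in Δpac-3 but varied among its libraries. It had 356, 255 and 365 CPM in high-Pi libraries labelled Δpac-3, against 222, 222 and 219.9 CPM in those labelled Δmus-52. In low-Pi it had 347, 243 and 217 CPM in Δpac-3, against 189, 190.0 and 189.7 CPM in Δmus-52. The 3 Δmus-52 libraries of each medium were nearly equal, and all lay below the lowest Δpac-3 library. The log2 fold change was 0.57 (SE 0.16, edgeR adjusted p = 0.0267) in high-Pi and 0.51 (SE 0.15, adjusted p = 0.0169) in low-Pi. The high-Pi call was lost without Δpac-3 library I or any Δmus-52 library (adjusted p = 0.0540 to 0.0967), and the low-Pi call without Δmus-52 library II (adjusted p = 0.0573).

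The gene acw-3 had 918, 917 and 1003 CPM in high-Pi libraries labelled Δpac-3, against 747, 801 and 769 CPM in those labelled Δmus-52. Its level in low-Pi was 744, 881 and 823 CPM in Δpac-3, against 924, 1017 and 903 CPM in Δmus-52. The Δpac-3 libraries thus lay above all Δmus-52 libraries in high-Pi and below all of them in low-Pi. Neither difference passed, with a log2 fold change of 0.31 (SE 0.11, edgeR adjusted p = 0.0635) in high-Pi and -0.21 (SE 0.10, adjusted p = 0.123) in low-Pi. The high-Pi difference was past the threshold with DESeq2 (adjusted p = 0.0203), with total counts as the scale (adjusted p = 0.0052) and in a fit of all 12 libraries (adjusted p = 0.0214).

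The gene acw-6 had 103, 107 and 172 CPM in high-Pi libraries labelled Δpac-3, against 98.1, 140.2 and 108 CPM in those labelled Δmus-52, and the groups overlapped. In low-Pi it had 136, 136 and 127 CPM in Δpac-3, against 127, 108 and 105 CPM in Δmus-52, with the lowest Δpac-3 library just under the highest Δmus-52 library. Its log2 fold change was 0.16 (SE 0.23, edgeR adjusted p = 0.614) in high-Pi and 0.24 (SE 0.09, adjusted p = 0.0545) in low-Pi. The low-Pi difference passed without Δmus-52 library I (0.32, adjusted p = 0.0202) and with total counts as the scale (0.42, adjusted p = 0.0056).

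The cerato-platanin gene ccg-14 was lower in Δpac-3 by nearly the same amount in both media. In high-Pi it had 7.83, 7.80 and 6.51 CPM in Δpac-3, against 16.2, 17.5 and 18.6 CPM in Δmus-52. In low-Pi it had 7.83, 6.05 and 6.20 CPM in Δpac-3, against 14.98, 16.2 and 14.6 CPM in Δmus-52. The strains did not overlap, and the log2 fold change was -1.22 (SE 0.15, edgeR adjusted p = 0.0014) in high-Pi and -1.17 (SE 0.14, adjusted p = 7.2e-05) in low-Pi. Both calls held with each library left out. Among the 9 genes, acw-1 and ccg-14 carry clock-controlled names, and they changed in opposite directions.

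The response to Pi was then compared within each strain, on the same 12 libraries. In Δpac-3, 0 of the 9 genes and 0% of 8348 genes were changed by edgeR's test, with 1 of the 9 (ncw-6) and 413 of all genes at an unadjusted p below 0.05. DESeq2 called 0 of the 9 genes and 21 of all genes. The log2 fold changes of the 9 genes in high-Pi over low-Pi ran between -0.06 for acw-6 and 0.55 for ncw-6, with a median of 0.22 beside 0.00 over all genes. The libraries of ncw-3, ncw-6 and acw-3 were all higher in high-Pi than in low-Pi, yet their log2 fold changes of 0.54 (SE 0.25), 0.55 (SE 0.21) and 0.22 (SE 0.13) all had an adjusted p of at least 0.928. Replicates spread more here, with a biological coefficient of variation of 0.208, against 0.120 in the same comparison of Δmus-52. The strain comparison in high-Pi, which shares the high-Pi Δpac-3 libraries, had the same 0.208.

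In Δmus-52, 4 of the 9 genes were lower in high-Pi than in low-Pi and none was higher, where 18.1% of 8190 genes were changed downwards and 14.4% upwards. This fit did not use the replicate numbers, and with the replicate block no call of the 9 genes changed here. None of the 9 was modulated, beside 3.6% of all genes, and their median log2 fold change was -0.28, beside -0.01 over all genes. The gene ncw-6 fell most, with the high-Pi libraries at 10.6, 13.1 and 7.93 CPM, against low-Pi libraries at 34.2, 23.7 and 25.8 CPM, and a log2 fold change of -1.46 (SE 0.19, edgeR adjusted p = 0.00046). The gene ncw-3 was lower in each high-Pi library than in any low-Pi library, with a log2 fold change of -0.66 (SE 0.15, adjusted p = 0.0087). The anchored genes acw-3 (-0.34, SE 0.09, adjusted p = 0.0154) and acw-2 (-0.28, SE 0.09, adjusted p = 0.0353) also fell without overlap. The call for acw-2 was lost when any 1 of the 6 libraries but high-Pi III was left out (adjusted p of up to 0.135), and that for acw-3 without low-Pi II (0.0763) or high-Pi I (0.0620), so that only 2 of the 9 genes were changed without low-Pi II and without high-Pi I. The other 5 genes were not changed: ncw-1 -0.41 (SE 0.42), acw-1 0.10 (SE 0.08), acw-5 0.18 (SE 0.08), acw-6 -0.02 (SE 0.14) and ccg-14 0.15 (SE 0.11). The pac-3 gene itself had a log2 fold change of -0.40 (SE 0.10, adjusted p = 0.0153) in these libraries, a call lost without library II of either medium.

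**Figure D3:**
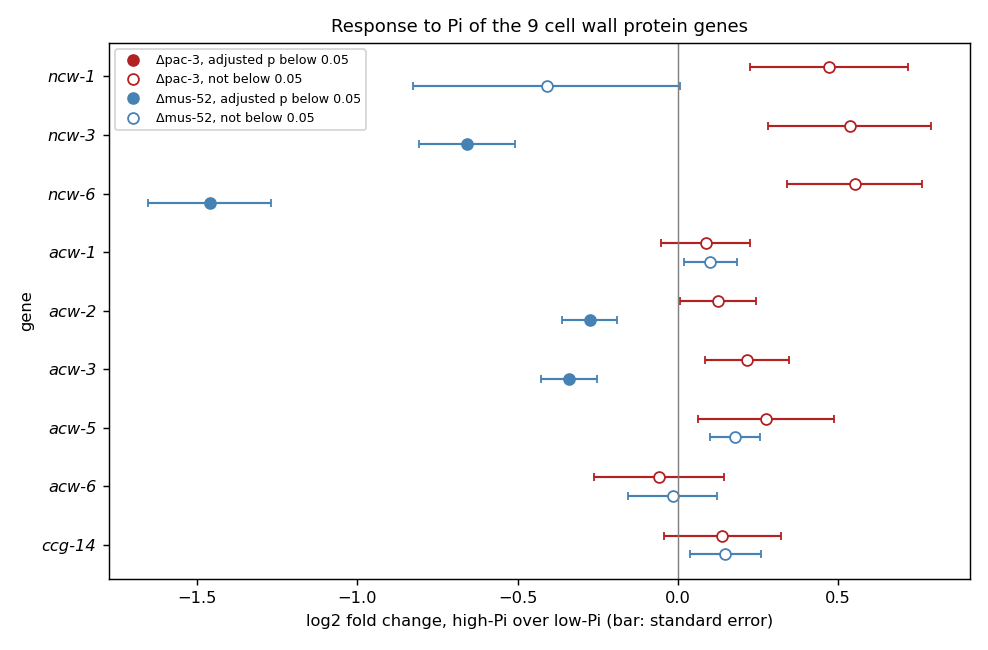
Log2 fold change of the 9 cell wall protein genes in high-Pi over low-Pi (horizontal axis), in libraries labelled Δpac-3 and in those labelled Δmus-52. Bars are standard errors of the edgeR fit, and filled points have an adjusted p below 0.05. The 4 filled points, for ncw-3, ncw-6, acw-2 and acw-3, are all of Δmus-52 and lie below 0.

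Whether the strain difference itself changed with Pi was tested by the interaction of strain and Pi over the 12 libraries, given as the strain log2 fold change in high-Pi minus that in low-Pi. Of the 9 genes, 3 had an interaction, all positive, against 7.53% of 8465 genes with a positive one. The study named ncw-3 and ncw-6 for their fall in the low-Pi libraries used here, a choice that favours a positive value. The interactions of ncw-3 and ncw-6, and the count that holds them, are therefore not independent evidence. The median value of the 9 genes was 0.38, beside -0.01 over all genes. Positive values made up 71.9% of all changed interactions, and 83.0% under scaling by total counts. The gene ncw-6 had the largest, 1.99 (SE 0.30, edgeR adjusted p = 0.0029), and it passed with each of the 12 libraries left out (1.81 to 2.17). For ncw-3 it was 1.17 (SE 0.32, adjusted p = 0.0369) and for acw-3 0.53 (SE 0.14, adjusted p = 0.0345). Each of these calls was lost in 8 of the 12 fits with a library left out. For ncw-3 these were the fits without any low-Pi library or without Δmus-52 high-Pi I or II (adjusted p of up to 0.0909), and for acw-3 those without any Δmus-52 library or without Δpac-3 low-Pi I or III (up to 0.0954). With Δpac-3 low-Pi I or III, Δmus-52 high-Pi I or II or any Δmus-52 low-Pi library left out, ncw-6 alone of the 9 genes remained.

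The other genes showed no interaction past the threshold. The values were 0.89 (SE 0.50, edgeR adjusted p = 0.276) for ncw-1 and 0.38 (SE 0.13, adjusted p = 0.0748) for acw-2, which passed with DESeq2 (adjusted p = 0.0088) and without Δpac-3 high-Pi library I (adjusted p = 0.0412). They were 0.08 (SE 0.23) for acw-5, -0.07 (SE 0.27) for acw-6, -0.03 (SE 0.15) for acw-1 and -0.04 (SE 0.19) for ccg-14, none of which was called under any setting. The direction of the values for acw-1 and ccg-14 turned to 0.03 and 0.04 under scaling by total counts.

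The profile of each gene over the 12 libraries was set beside those of 8464 genes by the root mean square difference of mean-centred log2 CPM, where 0 is an identical pattern. The genes most like ncw-1 were NCU05378 (0.30) and NCU17247 (0.31), where the median over all genes was 1.08. For ncw-3 they were pac-3 (0.28) and NCU16751 (0.28), with a median of 1.03, and for ncw-6 they were NCU00322 (0.27) and NCU06506 (0.30), with a median of 0.98. Because pac-3 is the deleted gene, any gene lower in libraries labelled Δpac-3 can lie near it. Whether PAC-3 acts on ncw-3 was not tested. The closest to acw-1 were NCU06349 (0.10) and NCU03364 (0.10), and to acw-2 the casein kinase gene ck-1b (0.08) and the Argonaute gene qde-2 (0.09). Those closest to acw-3 were NCU07675 and NCU02083 (0.08 each, median 0.36), and to acw-6 NCU07687 and NCU06516 (0.14 each, median 0.40). By the same measure acw-3 and acw-6 differed from a flat profile by only 0.15 and 0.23, against 1.04 for ncw-1. Their small distances are therefore not closer matches than those of ncw-1. For acw-5 they were NCU02481 (0.12) and nuo51 (0.14), a subunit gene of mitochondrial complex I, and for ccg-14 they were NCU07753 (0.13) and NCU07539 (0.15). None of the 9 genes was among the nearest of another, and these distances are a description of 12 libraries with no test.

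The other genes of the wall were read from 3 lists: 13 further cell wall protein genes, 3 genes that attach wall proteins and the glucan synthase gene fks. Of the 13, edgeR called 5 changed upwards (18.8% of all genes tested were) and 2 downwards (16.6%) in high-Pi, and 8 upwards (25.3%) and 3 downwards (25.9%) in low-Pi. The median log2 fold change of the 13 was 0.41 in high-Pi, beside -0.01 over all genes, and 0.45 in low-Pi, beside 0.02. The rises were led by eas, the hydrophobin of the conidial surface and also a conidial marker, with 25.9, 88.8 and 134 CPM in high-Pi libraries labelled Δpac-3, against 6.09, 6.56 and 3.04 CPM in those labelled Δmus-52. Its log2 fold change was 4.01 (SE 0.61, edgeR adjusted p = 0.0031) in high-Pi and 5.61 (SE 0.58, adjusted p = 2.9e-05) in low-Pi. The non-anchored gene ncw-7 rose by 3.35 (SE 0.46) and 3.08 (SE 0.24) and the anchored gene acw-12 by 2.11 (SE 0.37) and 1.59 (SE 0.16) on the log2 scale in high-Pi and low-Pi. In libraries labelled Δmus-52, ncw-7 had only 13 to 36 counts in high-Pi and 17 to 23 in low-Pi, which limits the precision of its rise. Its level in high-Pi libraries labelled Δpac-3 spread from 3.53 to 10.2 CPM. NCU00399, named as the cell wall protein PhiA by the study, had 4.57 to 6.31 CPM in high-Pi libraries labelled Δpac-3, against 17.1 to 21.3 CPM in those labelled Δmus-52, with a log2 fold change of -1.79 (SE 0.18, adjusted p = 0.00073). The study lists acw-12 and NCU00399 from these same libraries, so their direction is not independent evidence. The number called upwards ran between 4 and 6 in high-Pi and between 6 and 7 in low-Pi with a library left out, and the number called downwards between 2 and 4 and between 3 and 4. In high-Pi the downward count was 4 without Δpac-3 library I.

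The same 13 genes were read for Pi. In Δpac-3, edgeR and DESeq2 each called 0 of the 13, with 1 (eas) at an unadjusted p below 0.05 in edgeR, and with the replicate block eas was called lower in high-Pi (-1.78, adjusted p = 0.0353). In Δmus-52, 3 of the 13 were higher in high-Pi (NCU00399, ncw-2 and ncw-4), where 14.4% of all genes were, and 1, acw-12, was lower, where 18.1% were. The replicate numbers were taken to pair the Δmus-52 libraries, but the main fit did not use them. With the replicate block 5 of the 13 were higher and 3 lower, while the shares of all genes given here are those without the block. Without high-Pi II the upward count was 1, and without low-Pi II the downward count was 0. In the interaction 1 of the 13 was called downwards, beside 2.94% of all genes, ncw-4 with -0.71 (SE 0.20, edgeR adjusted p = 0.0460), a call lost in 9 of the 12 fits with a library left out and under scaling by total counts.

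The 3 genes of wall protein attachment were all changed between the strains in both media. Such calls were common among all genes: low-Pi had 4231 changed of 8269 tested, while high-Pi had 2935 changed of 8284. Whether the 3 genes stand out from that background was not tested. The cross-linking enzyme gene dcw1 had 107, 116 and 93.9 CPM in high-Pi libraries labelled Δpac-3, against 24.3, 27.6 and 21.9 CPM in those labelled Δmus-52. The low-Pi levels of dcw1 were 111, 107 and 110.5 CPM in Δpac-3, against 34.2, 40.5 and 35.2 CPM in Δmus-52. It stood clearly higher in every Δpac-3 library, with log2 fold changes of 2.12 (SE 0.14, edgeR adjusted p = 0.00015) in high-Pi and 1.58 (SE 0.09, adjusted p = 5.4e-07) in low-Pi, and it was modulated in both. The study names dcw1 from these libraries too, so this direction is not independent evidence. In Δmus-52 dcw1 was lower in high-Pi than in low-Pi by a log2 fold change of -0.62 (SE 0.11, adjusted p = 0.0029), and its interaction of 0.55 (SE 0.16, adjusted p = 0.0446) was called in 3 of the 12 fits with a library left out. The related gene dfg5 was changed the other way, by -0.59 (SE 0.10) and -0.50 (SE 0.12) in high-Pi and low-Pi, a call that the high-Pi fit lost under scaling by total counts. The mannosyltransferase gene och-1 was changed by 0.73 (SE 0.12) and 0.69 (SE 0.09). The catalytic subunit gene of β-1,3-glucan synthase, fks, had a log2 fold change of 0.20 (SE 0.13, adjusted p = 0.259) in high-Pi and -0.28 (SE 0.10, adjusted p = 0.0318) in low-Pi. Under scaling by total counts fks was changed upwards in high-Pi and not changed in low-Pi, and the low-Pi call was lost without low-Pi Δmus-52 I or II or Δpac-3 III. In Δmus-52 fks was also lower in high-Pi, with a log2 fold change of -0.44 (SE 0.09, adjusted p = 0.0053). Of the genes that every cell uses, β-tubulin was not changed between the strains in edgeR's test. Actin was not changed either, but its log2 fold change of -0.29 (adjusted p = 0.106) in high-Pi came from Δpac-3 libraries that all lay below those of Δmus-52, and it was called lower without Δpac-3 library I (adjusted p = 0.0463) and in the fit of 12 libraries. In Δmus-52 actin was higher in high-Pi by 0.32 (SE 0.08, adjusted p = 0.0123), a call lost without high-Pi II (0.0631).

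**Figure D4:**
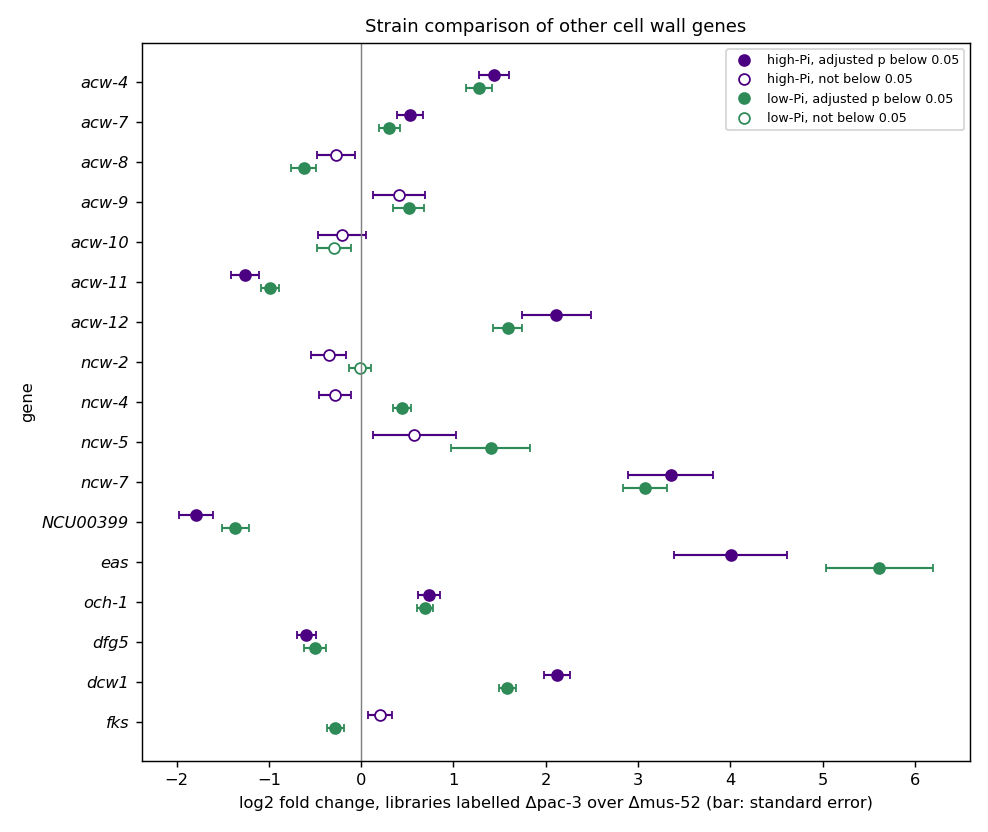
Log2 fold change of 17 other cell wall genes in libraries labelled Δpac-3 over those labelled Δmus-52 (horizontal axis), in high-Pi and low-Pi. Bars are standard errors of the edgeR fit, and filled points have an adjusted p below 0.05. The largest values are those of eas (4.01 and 5.61), and dcw1 (2.12 and 1.58) and dfg5 (-0.59 and -0.50) lie on opposite sides of 0.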

How the data were processed

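The authors sequenced 12 libraries, trimmed the reads, aligned them to assembly NC12 with Bowtie2 2.3.4 after FastQC 0.11.7 (versions from the submitters' processing notes) and deposited raw counts per gene. How reads were counted, whether by strand, and with which gene models is not given in the sources used here. Deposited DESeq tables of the strain comparisons hold the authors' fold changes and p-values and were not used.

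Counts were analysed with edgeR 4.0.16 in R 4.3.3 (filterByExpr at 10 counts and a total of at least 15, TMM, quasi-likelihood F test, Benjamini-Hochberg adjustment over all genes tested). Strain and Pi comparisons used their own 6 libraries, and the interaction used 12. The standard error is the absolute log2 fold change divided by the square root of F. CPM used TMM factors over 12 libraries, and profiles were log2 CPM with a prior count of 2. Alternatives were DESeq2 1.42.0, total-count scaling, no filter, a block by replicate number, 1 fit of 12 libraries for the strain comparisons and leaving out each library. The procedure was tested on simulated data. Tables and figures were made with Python 3.11.15, pandas 2.3.3 and matplotlib 3.10.9.

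Same-numbered libraries deviated together from their group means in the Pi comparison of Δmus-52 (r across genes of 0.31, 0.12 and 0.15 for I, II and III), so the numbers were taken to pair them there. The main fits did not use this pairing, which entered only through the alternative with the replicate block.

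The text names all 9 genes, both deleted genes, the 2 nearest profiles of each gene and at most 4 modulated genes of each list per strain comparison. Members of short counts, fks and the marker genes were named after their values were seen. The 9 genes and the lists were chosen with earlier results of these data known. Names and coordinates come from the RefSeq annotation of the NC12 assembly (9729 gene IDs found), which gives symbols only, so list rules by product could not be applied. Lengths and sequences were not used, and levels are not compared between genes, except for the parts that genes had in a sum.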

Additional observations from a re-analysis of the deposited data

Results flagged for a closer look

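For 3 of the cell wall protein genes, the strain effect in high-Pi differed from that in low-Pi by the interaction test over the 12 libraries. The difference was 1.99 on the log2 scale for ncw-6, the high-Pi strain effect being -0.51 and the low-Pi one -2.49. It was 1.17 for ncw-3, with strain effects of -1.23 in high-Pi and -2.38 in low-Pi. It was 0.53 for acw-3, with strain effects of 0.31 in high-Pi and -0.21 in low-Pi that did not pass the test on their own. The ncw-6 call held in each of the 12 fits with a library left out, while the ncw-3 and acw-3 calls were each lost in 8 of them. The study named ncw-3 and ncw-6 from the same low-Pi libraries, so their interactions are not independent of that choice.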

How the results depend on the processing

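Over the 50 values of single genes, 580 alternative fits were made. With DESeq2, 48 kept their direction and call, without the filter 50, with total counts 46 and with the replicate block 49, where acw-6 in low-Pi (0.24, adjusted p = 0.0386) gained a call and no other call changed. The replicate numbers did not clearly pair the libraries for strain in high-Pi (r of same-numbered deviations from -0.18 to 0.34) or for Pi in Δpac-3 (0.064 to 0.37). In both, library II correlated more with a library of another number (up to 0.097 and 0.23). For strain in low-Pi the same-numbered r were small (0.063 to 0.092) but above those of other numbers (at most -0.001), so a weak pairing is possible there.

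Counts of changed genes moved most with libraries left out: from 1582 to 3200 (strain in high-Pi, lowest without Δmus-52 I or II), 0 to 31 (Pi in Δpac-3, highest without high-Pi III), 1707 to 2923 (Pi in Δmus-52, lowest without library II of either medium) and 392 to 1585 (interaction, at most 579 without any Δpac-3 low-Pi library, Δmus-52 low-Pi II or III or Δmus-52 high-Pi I or II, highest without Δpac-3 high-Pi I). With DESeq2, 21 genes responded to Pi in Δpac-3 and 1346 had an interaction, and with the replicate block 1 gene, eas, responded to Pi in Δpac-3. Of the 9 genes, 1 to 2 were modulated in high-Pi, 2 to 4 changed with Pi in Δmus-52 and 1 to 4 had an interaction with a library left out.

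No called value changed sign. Uncalled log2 values that did so with a library left out were acw-6 (-0.11 to 0.32 for strain in high-Pi, -0.34 to 0.077 for Pi in Δpac-3, -0.18 to 0.11 for Pi in Δmus-52, -0.34 to 0.10 in the interaction), pac-3 for Pi in Δpac-3 (-0.073 to 0.18), ncw-1 for Pi in Δmus-52 (-0.73 to 0.10), and in the interaction acw-1 (-0.10 to 0.062), acw-5 (-0.054 to 0.28) and ccg-14 (-0.11 to 0.078). With total counts the interaction of acw-1 was 0.029 and that of ccg-14 was 0.041. The cause was not tested. The 16 to 56 counts of ncw-1 in high-Pi libraries labelled Δmus-52 limit the precision of its fold change.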
